A study of Mus musculus with 39 samples.

Results

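The comparison described here is that of AB1-HA tumours from mice given tretinoin together with immune checkpoint therapy (ICT), called the combination below, and AB1-HA tumours from mice given PBS. AB1-HA is a murine mesothelioma cell line that carries influenza haemagglutinin and was grown under the skin of BALB/c mice, adults of both sexes by the study's methods. The labels do not give the sex of a mouse, and Xist, which is expressed from an inactive X chromosome, was at 257 to 652 CPM (the counts scaled to a common library size with TMM factors) in all 20 tumours compared here, while the 4 genes of the Y chromosome that were looked up did not pass the filter on low counts. The members were chosen by the treatment in the deposited labels, which put 10 tumours in the combination group and 10 in the PBS group, of 39 tumours in all. The others came from mice given tretinoin alone (9 tumours) or ICT alone (10 tumours), and all 39 grew in the same strain from the same line. Tretinoin, which is all-trans retinoic acid, was started on day 4 and given once a day, 5 doses in all, at 5 mg/kg by the labels, and the study's text does not give 1 dose and number of doses throughout. ICT was 100 µg of anti-CTLA-4 and 100 µg of anti-PD-L1 on day 7, and each tumour was then removed whole by surgery on day 9 for RNA sequencing. By the study's methods anti-PD-L1 was given repeatedly at intervals, and whether a repeat came before surgery is not clear. By the study's methods, mice carried a tumour on either flank where response was read, and the one left in place was followed, so that 6 of the combination tumours are labelled responder and 4 non-responder by the fate of another tumour in the same mouse. No isotype antibody group is among these tumours, so each PBS tumour lacks both the drug and any antibody. The study's methods name PBS with DMSO as the tretinoin control, while the labels say only PBS. Whether these PBS mice received DMSO is therefore not known, and a part of the vehicle in the differences cannot be told apart from the treatment.

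Retinoic acid binds nuclear receptors (RARα, RARβ and RARγ, paired with RXR) that sit on response elements near their target genes. Among the best known targets are enzymes that remove the ligand, such as the CYP26 hydroxylases, and DHRS3, which turns retinaldehyde back to retinol. Antibodies against CTLA-4 and PD-L1 release T cells from inhibition, and activated T cells and natural killer (NK) cells secrete interferon-γ, which acts through JAK kinases and the IRF factors on antigen presentation genes, chemokines and a set of GTPases. Macrophages, neutrophils, dendritic cells and endothelium all respond to interferon-γ, so the same transcripts can come from several cell types in a whole tumour.

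The libraries held between 15565521 and 37951183 counted reads in the combination group (median 18719352) and between 16155683 and 23114796 in the PBS group (median 18958882). The markers of the labelled tumour type were unevenly present. Vim, Cav1 and Pdpn, genes of mesenchymal and mesothelial cells, were read in every tumour, with PBS medians of 4033, 1201 and 67.3 CPM, whereas 7 of the 11 mesothelial genes in the table stayed under 1 CPM in every PBS tumour, Upk3b, Calb2 and Krt19 among them. Tumours carry a number whose first digit is 1 or 5 in the PBS group and 2 or 4 in the combination group. The labels do not say what that digit marks, and since no digit occurs in both groups, its part in the differences and that of the treatment cannot be told apart. Each series of 5 is set against each series of 5 beside the counts, which shows the spread between series and does not part series from treatment. One PBS tumour, number 14, stood apart from its group, and tumours 22 and 42 of the combination carried hair and skin transcripts, so the main counts are also given without them.

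The 20 tumours separated by treatment along the first principal component of the 500 most variable genes, which held 49.2% of their variance. PBS tumours lay between −24.2 and −2.57 (median −15.8), and combination tumours between 2.27 and 32.3 (median 13.1). The group means differed by 30.5, with a two-sided permutation p of 2e-05 over tumours, the smallest that 100000 resamples can give. The groups did not overlap on this axis, and with 2000 genes the difference was 40.4 with the same p. On log2 CPM values in place of variance-stabilised ones the difference was 33.7 (permutation p = 8e-05), but the lowest combination tumour, at −7.35, then lay inside the PBS range. The combination tumours were spread over a wider range than the PBS tumours (SD of 11.1 against 5.53), with non-responder tumours 21, 44 and 25 nearest to the PBS group and responder tumours 22 and 42 farthest from it. The response labels were not fully sorted along the axis. Responder tumour 43 (6.41) lay beside non-responder tumour 25 (6.39), and non-responder tumour 23 (13.9) lay beyond responder tumours 43 and 45 (12.3). Tumours 22 and 42 are those with hair and skin transcripts, and the components were not computed without them.

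**Figure D1:**
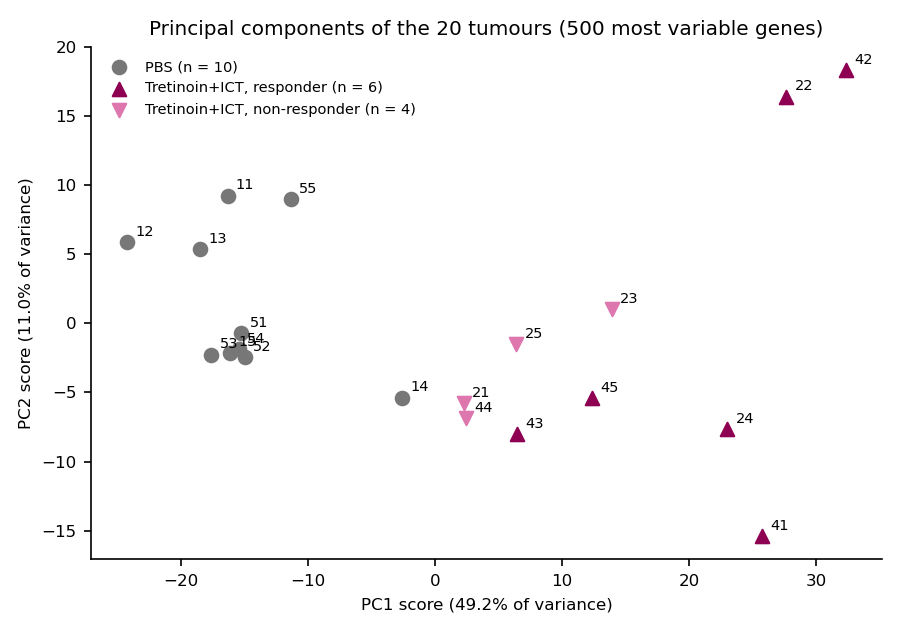
First and second principal components of variance-stabilised counts of the 500 most variable genes, each point a tumour with its number, coloured by group and marked by response label where there is one. The 10 combination tumours all lay above 0 on the first component and the 10 PBS tumours all below, with PBS tumour 14 nearest to the combination.

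Of 14265 genes tested, 778 (5.45%) were called higher and 67 (0.47%) lower in the combination, where a call needs an adjusted p under 0.05 in the edgeR quasi-likelihood test and at least a 2-fold difference. By the adjusted p alone, 3673 genes (25.7%) were higher and 3501 (24.5%) lower, so that most changes in either direction were of under 2-fold. The median log2 fold change over all genes tested was −0.01, against 1.40 over the called rises and −1.14 over the called falls, and 147 genes rose by at least 2 on the log2 scale while 4 fell by as much. For 528 genes (3.7%) every combination tumour lay above every PBS tumour, and for 259 (1.82%) every one lay below. Of the 845 called genes, 254 rises and 13 falls were without any overlap. Comparing each series of 5 combination tumours with each series of 5 PBS tumours gave between 696 and 877 rises and between 39 and 115 falls. Without tumours 22 and 42 there were 663 rises and 53 falls, and with PBS tumour 14 also left out 738 and 54.

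The retinoic acid target genes Dhrs3 and Cyp26b1 were higher in every combination tumour than in any PBS tumour. Dhrs3 (ENSMUSG00000066026.14, chr4:144892827-144928209 on GRCm38) lay between 37.1 and 52.3 CPM in PBS tumours (median 45.1) and between 112 and 205 CPM in combination tumours (median 167). It rose 3.67-fold (log2 fold change 1.88 ± 0.09, SE; adjusted p = 7.4e-12), the smallest adjusted p of the comparison. Cyp26b1 (ENSMUSG00000063415.12, chr6:84571414-84593908), which encodes a hydroxylase that inactivates retinoic acid, went from 5.49 to 11.7 CPM in PBS tumours (median 8.34) to 53.3 to 171 CPM in combination tumours (median 119), a rise of 15.2-fold (log2 fold change 3.92 ± 0.19, adjusted p = 2.1e-11). No combination tumour overlapped the PBS range for either gene, and the lowest for both was non-responder tumour 21.

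Further genes of the retinoid list rose as well. Tgm2, the transglutaminase that retinoic acid is known to induce, had a median of 146 CPM (111 to 247) in PBS tumours and 681 CPM (485 to 1294) in combination tumours, a log2 fold change of 2.31 ± 0.18 (adjusted p = 2.9e-08) with the groups apart. Hic1, a transcriptional repressor gene, rose by 0.95 on the log2 scale (adjusted p = 6.8e-06), from a median of 74.5 to 156 CPM. The receptor genes Rarg and Rara rose by 0.47 and 0.53, under the 2-fold line, and for either gene 1 combination tumour lay inside the PBS range. Of the 22 retinoid metabolism and signalling genes tested, 6 were called higher and none lower, and 13 were higher and 3 lower by the adjusted p alone. Their median log2 fold change was 0.35, and single genes ranged from −0.66 to 3.92. None of the 15 with a RefSeq promoter entry held the retinoic acid response element of the DR5 arrangement (0.115% of all promoters did), which says only that its letters are not in that window. Nrip1, which encodes the nuclear receptor corepressor RIP140, is outside the list and was among the 10 genes with the smallest adjusted p, at 48.3 CPM (39.6 to 56.9) in PBS tumours and 107 CPM (79.9 to 148) in combination tumours (log2 fold change 1.25 ± 0.10, adjusted p = 2.5e-08).

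**Figure D2:**
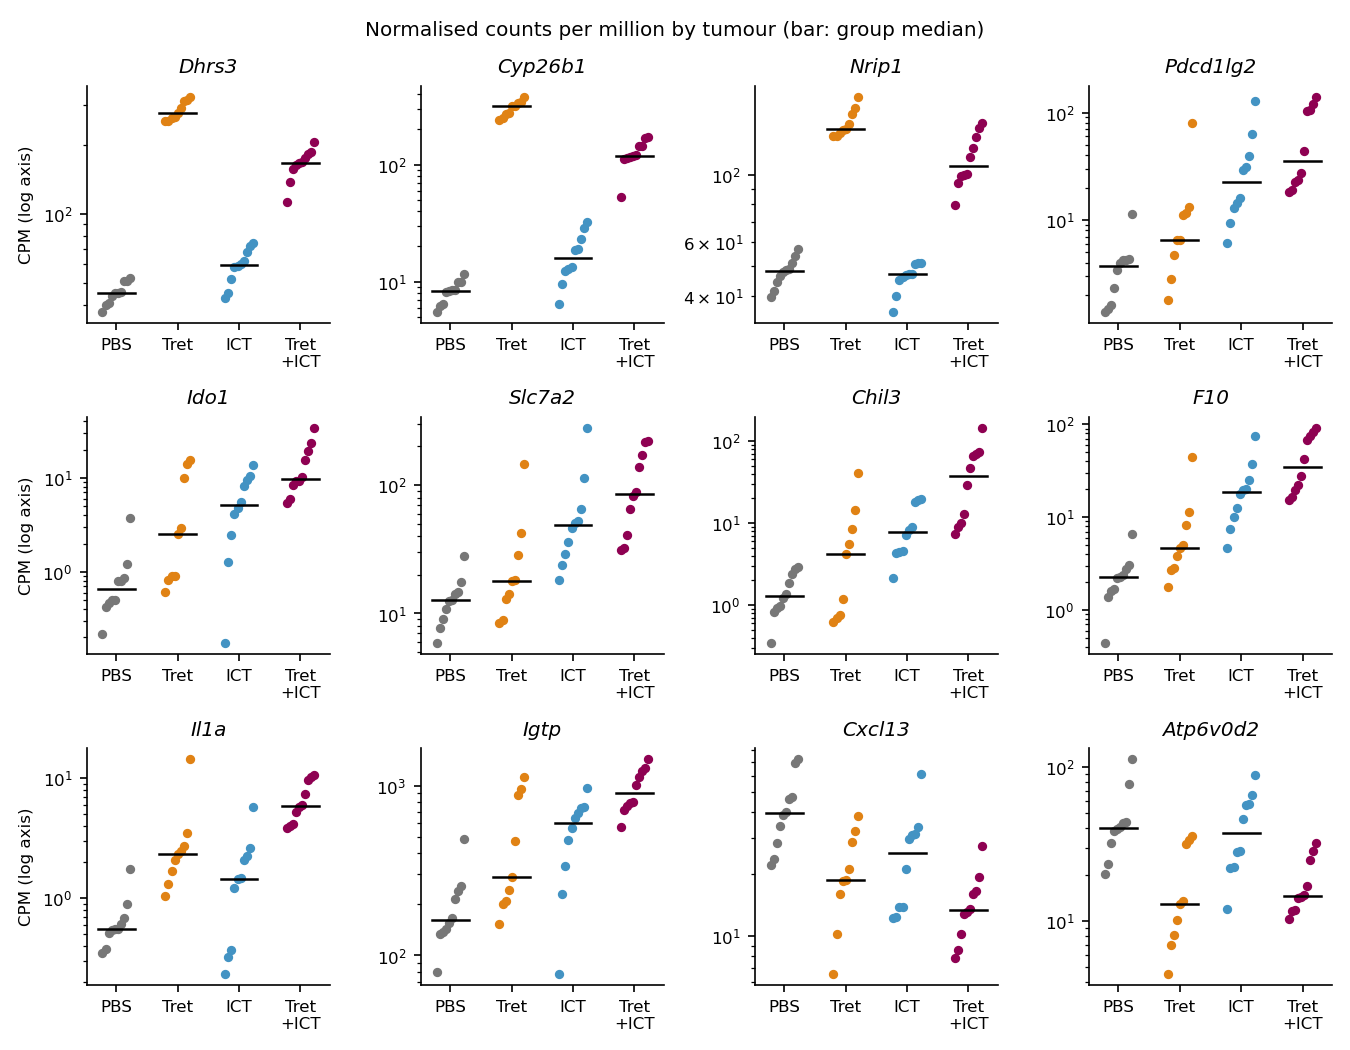
TMM-scaled CPM of 12 named genes on a log axis, each point a tumour, in the PBS, tretinoin, ICT and combination groups, with a bar at each group's median. For Dhrs3, Cyp26b1, Nrip1, Pdcd1lg2, Ido1, Slc7a2, Chil3, F10, Il1a and Igtp all 10 combination tumours lay above all 10 PBS tumours, while Cxcl13 and Atp6v0d2 were lower with some overlap.

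All 16 tested GTPases that interferon-γ induces were called higher, the only list of the 34 in which every tested member passed. The proteins, guanylate-binding proteins (Gbp) and immunity-related GTPases (Igtp, Irgm and Tgtp), act inside cells against the vacuoles of microbes. Their log2 fold changes ran from 1.59 for Gbp9 to 3.17 for Gbp11, with a median of 2.33. The promoters of this family are shown because they share short elements that STAT and IRF factors are known to bind. In the RefSeq promoter table (GRCm38.p6, 250 bases before to 50 after each gene's start), 10 of the 16 had an entry, and all 10 held the interferon-stimulated response element letters GAAANNGAAA on either strand, against 3.99% of 27025 promoters and 4.07% of the promoters of tested genes. The gamma-activated sequence letters TTCNNNGAA were in 6 of the 10, against 9.55% of all promoters. A match describes letters in a window and not a bound site. In the lines that follow, each read 5′ to 3′ along the gene's strand, capitals mark 1 match per gene, written TTTCNNTTTC where the element lies on the other strand. The strand is that of the RefSeq table, and the bases after the start were also found in a GENCODE transcript of the same gene for each one printed but Irgm2.
Igtp (chr11:58199507-58199546, plus strand): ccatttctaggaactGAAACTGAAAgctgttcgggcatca
Irgm2 (chr11:58214898-58214937, plus strand): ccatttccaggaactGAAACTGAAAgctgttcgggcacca
Tgtp1 (chr11:48992299-48992338, minus strand): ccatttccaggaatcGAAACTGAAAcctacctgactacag
Tgtp2 (chr11:49064258-49064297, minus strand): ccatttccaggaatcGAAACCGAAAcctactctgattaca
Irgm1 (chr11:48871426-48871465, minus strand): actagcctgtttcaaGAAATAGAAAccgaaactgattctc
Gbp2 (chr3:142620589-142620628, plus strand): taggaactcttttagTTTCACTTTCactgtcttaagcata
Gbp2b (chr3:142594695-142594734, plus strand): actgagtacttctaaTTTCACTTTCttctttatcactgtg
Gbp3 (chr3:142559984-142560023, plus strand): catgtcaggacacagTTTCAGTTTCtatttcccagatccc
Gbp5 (chr3:142496754-142496793, plus strand): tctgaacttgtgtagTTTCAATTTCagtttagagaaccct
Gbp7 (chr3:142530268-142530307, plus strand): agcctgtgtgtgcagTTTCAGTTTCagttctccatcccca

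Irf1, itself induced by interferon-γ, is shown for the second element, its promoter holding 1 match of TTCNNNGAA ending 82 bases before the start.
Irf1 (chr11:53769909-53769947, plus strand): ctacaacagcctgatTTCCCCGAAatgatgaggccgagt

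Igtp, the GTPase IRGM3, had a median of 161 CPM (80.0 to 488) in PBS tumours and 909 CPM (569 to 1441) in combination tumours, a log2 fold change of 2.27 ± 0.27 (adjusted p = 3e-06). Irgm2 went from a median of 127 CPM (63.3 to 334) to 585 CPM (408 to 846), with a log2 fold change of 2.04 ± 0.23 (adjusted p = 2.1e-06). Tgtp1 rose by 2.35 ± 0.29 and its close copy Tgtp2 by 2.19 ± 0.27 (adjusted p = 4.3e-06 for each), and since the pair is nearly identical the share of reads of each is uncertain. For these 4 and for Irgm1, no combination tumour overlapped the PBS range. PBS tumour 14 had the highest mean level of the family in its group, and the count of 16 was the same in every alternative run.

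Transcription factors of the interferon-γ pathway rose with their targets. Irf1 had a median of 216 CPM (143 to 477) in PBS tumours and 797 CPM (528 to 1342) in combination tumours (log2 fold change 1.86 ± 0.20, adjusted p = 1.3e-06). Irf8, needed for macrophages and cross-presenting dendritic cells, rose from 70.3 CPM (51.97 to 131) to 254 CPM (170 to 389), a log2 fold change of 1.84 ± 0.19, and Irf5, a macrophage factor for inflammatory cytokine genes, from 55.9 to 172 CPM, 1.66 ± 0.15 (adjusted p = 8.4e-07 and 1.5e-07). Both were without overlap. Batf2 rose by 2.37 ± 0.27, the largest change of the list, and the feedback inhibitor Socs3 by 1.25 ± 0.13. Of the 13 genes of this list tested, 8 were called higher and none lower, all 13 were higher by the adjusted p alone, and their median was 1.25.

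Antigen presentation genes of both classes rose. In the class I list 7 of 15 tested genes were called higher, all 15 by the adjusted p alone, with a median of 0.98 and a narrow range of 0.82 to 1.49. Tap1, a subunit of the peptide transporter, went from a median of 201 CPM (144 to 438) in PBS tumours to 573 CPM (358 to 838) in combination tumours (log2 fold change 1.48 ± 0.19, adjusted p = 4.4e-06). The peptide loading protein gene Tapbp and the immunoproteasome gene Psmb8 rose by 1.18 and 1.32. In each of these, 9 of 10 combination tumours exceeded every PBS tumour, so 1 combination tumour lay inside the PBS range. In the class II list 7 of 9 tested genes were called higher, with a median of 1.66. H2-DMa, which exchanges peptides on class II molecules, rose from a median of 51.2 CPM (41.7 to 129) to 211 CPM (121 to 387), a log2 fold change of 1.98 ± 0.24 (adjusted p = 3.2e-06), and the class II chain gene H2-Ab1 by 1.81 ± 0.26 (adjusted p = 1.9e-05). Ctss, the protease that trims the invariant chain, rose by 1.21.

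Antiviral genes known mainly as targets of type I interferon moved less than the GTPases. Of 27 tested IFIT, OAS and other antiviral effectors, 5 were called higher while 26 were higher by the adjusted p alone, and their median log2 fold change was 0.59 against 2.33 for the GTPases. Zbp1, a sensor of Z-form nucleic acid that interferon-γ also induces, was the largest of the 5, from a median of 114 CPM (63.2 to 268) to 422 CPM (214 to 604), or 1.78 ± 0.22 (adjusted p = 4.6e-06). Oasl2, Rtp4 and Dhx58 rose by 1.05, 1.06 and 1.06. Irf9, part of the complex that type I interferon activates, rose by 0.58 ± 0.07 with the groups apart. The promoters of this list also carried the response element, in 12 of the 20 with an entry.

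**Figure D3:**
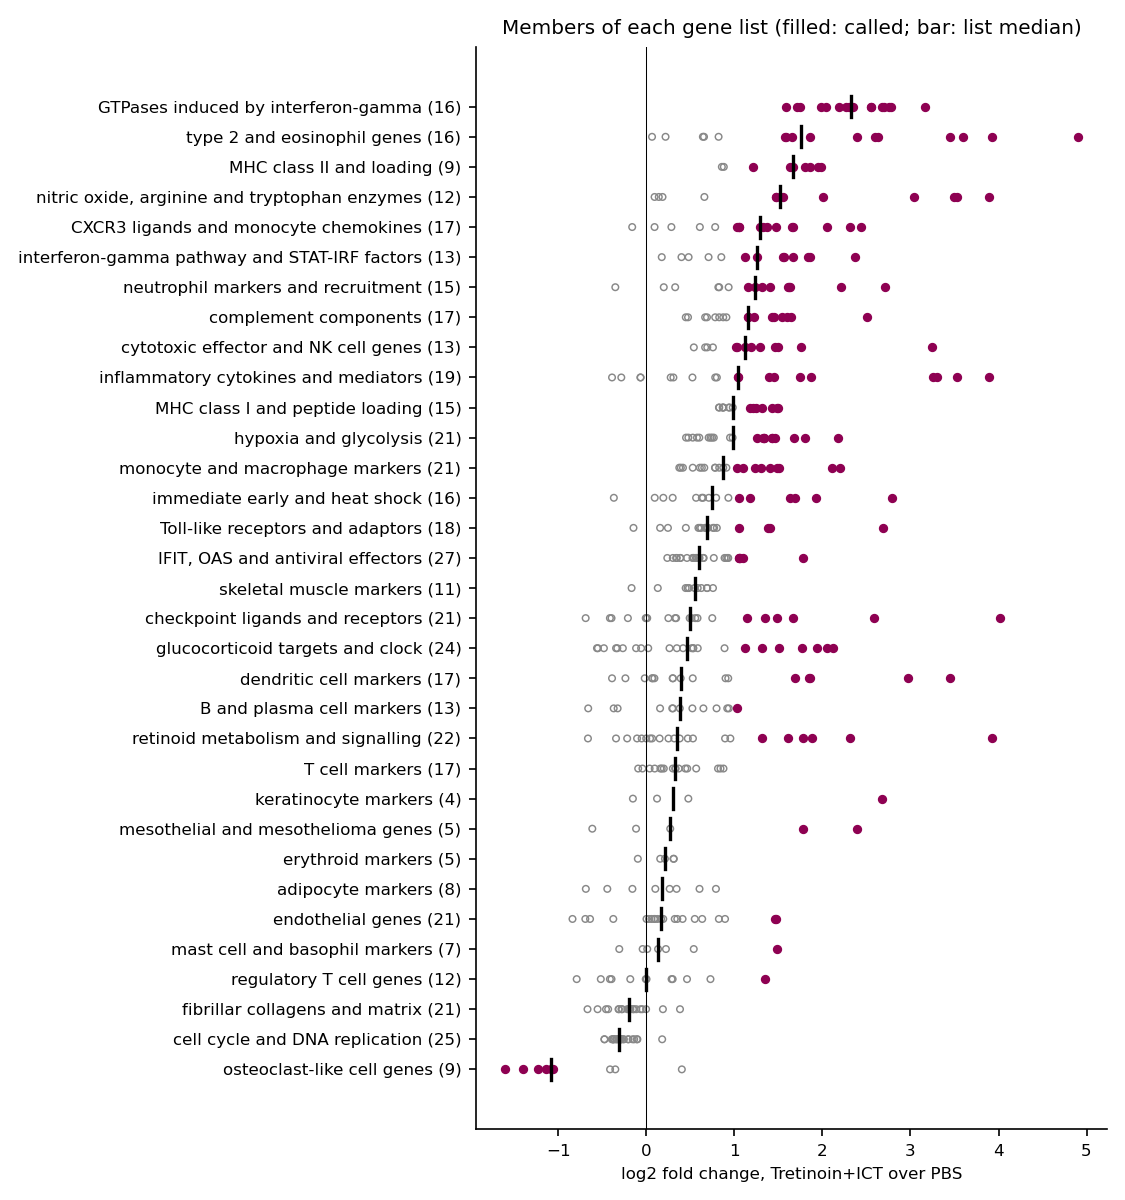
Log2 fold changes of the tested members of each gene list in combination against PBS tumours, each point a gene, filled where it was called, with a bar at the list's median. The GTPases lay wholly above 1.5, collagen and cell cycle genes lay mostly just below 0, and the osteoclast-like cell genes were the list with called falls.

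Chemokine genes that draw T cells and monocytes rose. For these, as for the cell type lists that follow, a change in the number of cells of a type and in the RNA per cell cannot be told apart in whole tumours. Of 17 genes in the list, 12 were called higher and none lower, with a median of 1.30. Ccl6 and Ccl9, myeloid chemokines, and their receptor gene Ccr1 had no overlap between groups. Ccl6 rose from a median of 115 CPM (71.2 to 154) to 439 CPM (252 to 721), a log2 fold change of 2.06 ± 0.23 (adjusted p = 1.7e-06), and Ccr1 by 1.37 ± 0.16. The monocyte chemokine genes Ccl2 and Ccl7 rose by 1.67 and 1.33. Cxcl11, a CXCR3 ligand that interferon-γ induces, rose from a median of 11.8 CPM (4.93 to 36.1) to 62.4 CPM (27.2 to 111), or 2.31 ± 0.31 (adjusted p = 8.8e-06), with 9 of 10 combination tumours above every PBS tumour. Without tumours 22 and 42 the list held 10 called rises.

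Genes of cytotoxic cells rose, while those common to all T cells rose by less than 2-fold or did not pass the test. Of 13 tested cytotoxic effector and NK cell genes, 9 were called higher and 12 were higher by the adjusted p alone, with a median of 1.12, and 7 were called without tumours 22 and 42. Gzmd, a granzyme, was spread over a wide range, from 0.306 to 5.73 CPM in PBS tumours (median 0.867) and from 2.79 to 27.2 CPM in combination tumours (median 12.2), a log2 fold change of 3.24 ± 0.53 (adjusted p = 6.5e-05). Tbx21 and Eomes, which encode T-box factors of cytotoxic cells, rose by 1.76 and 1.29, and Nkg7, a cytotoxic granule gene, from a median of 7.35 CPM (5.95 to 14.7) to 19.2 CPM (12.4 to 37.6), or 1.46 ± 0.21. Klrk1, which encodes the activating receptor NKG2D, rose by 1.496 ± 0.24.

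Of the 17 T cell markers tested, none was called, and their median was 0.33. By the adjusted p alone 6 were higher, where 25.7% of all genes tested were. The largest was the kinase gene Zap70, from a median of 4.40 CPM (3.80 to 8.67) to 9.12 CPM (5.41 to 12.3), a log2 fold change of 0.88 ± 0.17 (adjusted p = 0.00027), with 5 combination tumours inside the PBS range. The T cell receptor constant gene Trbc1 rose by 0.81. The summed level of the 17 markers ran from 120 to 261 CPM in PBS tumours (median 149) and from 144 to 301 CPM in combination tumours (median 209). Cd3e and Cd8a, named after their values were seen because they define T cells and their cytotoxic subset, had log2 fold changes of 0.09 ± 0.16 and 0.33 ± 0.24 and did not pass (adjusted p = 0.65 and 0.26).

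Regulatory T cell genes did not move together. Of 12 tested, 1 was called higher, where 5.45% of all genes tested were. By the adjusted p alone 4 were higher and 3 lower, where 25.7% and 24.5% of all genes tested were, and the median was 0.00. Foxp3, the lineage factor of regulatory T cells, fell from a median of 15.2 CPM (11.7 to 19.97) to 7.98 CPM (4.203 to 16.5), a log2 fold change of −0.79 ± 0.17 (adjusted p = 0.00052), with 9 of 10 combination tumours below every PBS tumour. Foxp3 did not pass when combination series 4 alone was set against either PBS series (adjusted p up to 0.11). Ccr8, a chemokine receptor gene of the same cells, was lower by little more than the test's limit (−0.52 ± 0.19, adjusted p = 0.029), and it lost the threshold in 10 of 32 alternatives, where the log2 fold change ran from −0.74 to −0.28 (adjusted p up to 0.42). Tnfrsf9, which encodes the costimulator 4-1BB also found on activated T cells, rose by 1.35 ± 0.20, and Ikzf4 rose by 0.73.

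Checkpoint ligand genes were among the largest rises. Pdcd1lg2, the gene of PD-L2, went from a median of 3.70 CPM (1.39 to 11.4) in PBS tumours to 35.5 CPM (18.4 to 140) in combination tumours, a rise of 16.2-fold (log2 fold change 4.02 ± 0.52, adjusted p = 7.5e-06), and the groups did not overlap even though PBS tumour 14 held the highest PBS value by a wide margin. Cd274, the gene of PD-L1, the target of 1 of the 2 antibodies, rose from a median of 41.2 CPM (18.7 to 124) to 238 CPM (110 to 527), or 2.58 ± 0.34 (adjusted p = 7.7e-06). The costimulatory genes Cd86 and Cd40 rose by 1.49 and 1.66, while Nectin2 and Lgals9 rose by 0.58 and 0.51. Of the 21 checkpoint ligand and receptor genes tested, 6 were called higher and none lower, with a median of 0.49.

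Macrophage genes rose as a group, by modest amounts. All 21 tested monocyte and macrophage markers were higher by the adjusted p alone and 9 were called, with a median of 0.87 and a lowest value of 0.37. The Fc receptor genes Fcgr3 and Fcgr1 rose by 1.502 and 1.30, and Mertk, a receptor for dying cells, from a median of 16.6 CPM (14.4 to 20.4) to 37.8 CPM (18.7 to 54.8), or 1.23 ± 0.12 (adjusted p = 3.2e-07). Tagap, a GTPase-activating protein gene of immune cells, rose from 30.9 CPM (27.0 to 39.9) to 68.8 CPM (54.7 to 90.4), or 1.15 ± 0.09 (adjusted p = 1.7e-08).

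Complement genes followed. All 17 tested were higher by the adjusted p alone and 9 were called, with a median of 1.15. C1qa, C1qb, C1qc and Itgam are also among the macrophage markers counted above. C5ar1, the receptor of the fragment C5a, went from 30.3 CPM (25.7 to 39.1) to 70.0 CPM (56.6 to 91.9), a log2 fold change of 1.22 ± 0.09 (adjusted p = 1.1e-08) with the groups apart. The protease genes C1ra and C1s1 rose by 1.45 and 1.596, and the genes of the 3 C1q chains, C1qa, C1qb and C1qc, by 0.83, 0.87 and 0.91. Among 18 Toll-like receptor and adaptor genes 4 were called higher and 15 were higher by the adjusted p alone, with a median of 0.68. Irak2, a kinase downstream of these receptors, rose by 1.39 ± 0.12 (adjusted p = 5.6e-08) and Unc93b1, which carries the endosomal receptors, by 1.06.

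Enzymes of tryptophan and arginine use rose strongly. Ido1, which starts the breakdown of tryptophan, went from a median of 0.650 CPM (0.219 to 3.75) in PBS tumours to 9.75 CPM (5.37 to 34.3) in combination tumours, a rise of 14.9-fold (log2 fold change 3.89 ± 0.46, adjusted p = 2.8e-06). Its neighbour Ido2 rose by 3.50 ± 0.38 (adjusted p = 9.2e-07), Kynu, later in the same pathway, by 2.003 ± 0.31, and Wars, the tryptophan tRNA ligase gene, by 1.55 ± 0.18. All 4 were without overlap. Slc7a2, an arginine transporter gene, rose from a median of 12.7 CPM (5.86 to 27.8) to 85.7 CPM (31.1 to 220), or 3.04 ± 0.41 (adjusted p = 1e-05), and Ass1, which remakes arginine, by 1.47. Of the 12 genes of this list tested 8 were called higher and none lower, with a median of 1.51.

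The largest rise among well-read genes (a mean of at least 1 on the log2 CPM scale) was that of Chil3, which encodes the chitinase-like protein Ym1 of alternatively activated macrophages. Chil3 (ENSMUSG00000040809.10, chr3:106147554-106167564) lay between 0.342 and 2.93 CPM in PBS tumours (median 1.29) and between 7.35 and 146 CPM in combination tumours (median 37.6). The fitted rise was 30.0-fold (log2 fold change 4.91 ± 0.60, adjusted p = 4.6e-06). Every combination tumour was above every PBS tumour, and within the combination the values fell over a wide range. The coagulation factor gene F10 rose from a median of 2.24 CPM (0.438 to 6.53) to 34.96 CPM (15.3 to 91.9), or 19.1-fold (4.25 ± 0.45, adjusted p = 1.2e-06). Its neighbour on chromosome 8, F7, rose from 1.004 CPM (0.438 to 1.99) to 12.4 CPM (2.92 to 29.2), or 3.76 ± 0.47 (adjusted p = 4.8e-06). Gm5960, annotated as an unprocessed pseudogene among the Ly6 genes, rose by 4.30 ± 0.43 and is uncertain, since its reads may belong to a near-identical neighbour. Gm37691, an unclassified transcript beside G0s2 on chromosome 1, rose by 3.98 ± 0.28, from between 0.110 and 0.419 CPM to between 2.41 and 7.32 CPM.

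Most type 2 and eosinophil genes rose beside Chil3. Of 16 tested, 11 were called higher and none lower, with a median of 1.75. Ccl17, which attracts CCR4-bearing T cells, went from a median of 2.25 CPM (1.15 to 3.60) to 23.5 CPM (8.38 to 40.4), a log2 fold change of 3.45 ± 0.34 (adjusted p = 3.9e-07), and Ccl22, a ligand of the same receptor, by 1.86 ± 0.25. Ccl24, an eosinophil attractant gene, rose from 1.18 CPM (0.548 to 3.44) to 11.4 CPM (5.50 to 47.5), or 3.60 ± 0.48 (adjusted p = 1e-05). The lectin gene Mgl2 rose by 2.63 ± 0.31 and the eosinophil ribonuclease gene Ear2 by 2.39 ± 0.33. Il4, Il5ra and Cd209a did not pass, at 0.22, 0.64 and 0.06 (adjusted p = 0.15, 0.095 and 0.81), and Mrc1 and Ccr3 passed at 0.65 and 0.82, under the 2-fold line. The groups did not overlap for 6 genes of this list. Among 17 dendritic cell genes, which share Ccl17, Ccl22 and Cd209a with that list, 5 were called higher with a median of 0.39. Batf3, needed for cross-presenting dendritic cells, rose from 1.47 CPM (0.844 to 2.46) to 9.15 CPM (4.66 to 21.02), or 2.97 ± 0.31 (adjusted p = 5.1e-07). Clec9a, a marker of those cells, rose by 1.69 ± 0.25. By the adjusted p alone 8 of the 17 were higher and 1 lower, where 25.7% and 24.5% of all genes tested were. Flt3, Zbtb46, Cd209a and Siglech did not pass, at 0.07, 0.30, 0.06 and −0.02 (adjusted p = 0.73, 0.067, 0.81 and 0.91). The lower gene was Tcf4, at −0.24 (adjusted p = 0.0028).

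Neutrophil genes and early inflammatory cytokines also rose. Of 15 tested neutrophil genes 9 were called higher and none lower, with a median of 1.23. Cxcl2, a neutrophil attractant gene, went from a median of 1.18 CPM (0.383 to 1.87) to 7.97 CPM (3.55 to 12.9), a log2 fold change of 2.72 ± 0.27 (adjusted p = 3.1e-07). Its receptor gene Cxcr2 rose from 7.25 CPM (4.38 to 13.9) to 24.4 CPM (16.2 to 41.4), or 1.61 ± 0.22, and Trem1, a myeloid amplifier of inflammation, by 1.62 ± 0.19. Groups were apart for all 3. Padi4 and Mmp8 rose by 2.22 and 1.63, the latter at 2.15 CPM or less in every tumour. The summed level of the neutrophil genes in the table overlapped widely, at 271 to 694 CPM in PBS tumours and 352 to 682 CPM in combination tumours, and Ly6g, a defining marker, was under 1 CPM in all 20 tumours.

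Among 19 inflammatory cytokines and mediators 10 were called higher and none lower, with a median of 1.04, and 8 were called without tumours 22 and 42. Il1a, a cytokine released by damaged and activated cells, went from 0.548 CPM (0.348 to 1.77) to 5.86 CPM (3.86 to 10.8), or 3.30 ± 0.28 (adjusted p = 3.9e-08). Csf2, the gene of the growth factor GM-CSF, rose from 0.234 CPM (0.137 to 0.803) to 2.69 CPM (0.842 to 4.72), or 3.25 ± 0.35. Il1rn, the gene of the natural inhibitor of interleukin-1, rose by 1.39 ± 0.16, Osm by 1.45 ± 0.22 and Il27 by 1.87 ± 0.28. Each of these but Il27 was without overlap. Hdc, which makes histamine and is used by basophils, mast cells and neutrophils, rose by 1.48 ± 0.17, and was the only called gene of 7 in the mast cell and basophil list, in which Cpa3 was at −0.04 ± 0.11 (adjusted p = 0.76).

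Genes of low oxygen and glucose use rose together. All 21 tested were higher by the adjusted p alone, 10 were called and 13 had the groups apart, with a median of 0.98. Adm, the gene of the vasodilator adrenomedullin, went from a median of 6.28 CPM (5.43 to 7.71) to 17.6 CPM (10.9 to 25.96), a log2 fold change of 1.42 ± 0.11 (adjusted p = 2.5e-08). Hk2, the first enzyme of glycolysis, rose from 59.1 CPM (43.98 to 78.1) to 168 CPM (128 to 270), or 1.67 ± 0.14 (adjusted p = 4.9e-08). Slc2a1, a glucose transporter gene, rose by 1.80 ± 0.20 and Vegfa by 1.33 ± 0.12.

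Hormone and stress response genes that passed the 2-fold line were all rises. Of 24 glucocorticoid target and clock genes 7 were called higher and none lower, with a median of 0.46. By the adjusted p alone 14 were higher and 5 lower, where 25.7% and 24.5% of all genes tested were. The clock gene Per1, which glucocorticoids induce, went from a median of 29.2 CPM (22.1 to 59.9) to 135 CPM (62.1 to 179), or 2.05 ± 0.20 (adjusted p = 3e-07). The metallothionein genes Mt1 and Mt2 rose by 1.77 and 2.12, and the clock regulators Nfil3 and Bhlhe40 by 1.93 and 1.31. Of the 5 that were lower, Per3, Nr1d1, Nr1d2 and Tef, all genes of the clock, fell by 0.55, 0.35, 0.56 and 0.48. Cry2, a clock repressor gene, fell by 0.33, with all 10 combination tumours below all 10 PBS tumours, at 17.6 to 20.6 CPM against 21.6 to 24.9 CPM. Of 16 immediate early and heat shock genes 6 were called higher, and 12 were higher and 1 lower by the adjusted p alone, with a median of 0.75. The lower one was the chaperone gene Hsph1, at −0.37. Atf3, a stress factor, rose from 4.72 CPM (4.12 to 10.1) to 30.1 CPM (19.5 to 71.9), or 2.79 ± 0.28 (adjusted p = 4.4e-07), Ier3 by 1.93 and Egr2 by 1.63.

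Called falls were few, and 7 of the 66 with a gene type were pseudogenes, against 1129 of 12832 tested. The largest with the groups apart was Mfap3l, which encodes a membrane protein, from a median of 36.8 CPM (23.9 to 52.8) in PBS tumours to 10.2 CPM (3.34 to 17.1) in combination tumours (log2 fold change −1.86 ± 0.26, adjusted p = 1.2e-05). Lhx9, a LIM homeobox factor gene, fell from 5.90 CPM (3.87 to 8.56) to 1.75 CPM (0.403 to 3.43), or −1.67 ± 0.28 (adjusted p = 5.3e-05), and the orphan receptor gene Gpr165 from 14.01 CPM (10.01 to 17.5) to 4.91 CPM (1.78 to 8.61), or −1.52 ± 0.18 (adjusted p = 2.3e-06). Every combination tumour was below every PBS tumour for these 3. Cxcl13, which attracts B cells, fell from 39.5 CPM (22.1 to 72.3) to 13.4 CPM (7.88 to 27.2), or −1.53 ± 0.25 (adjusted p = 5.4e-05).

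The other named falls, Slc9b2 apart, rested on a few PBS tumours. Gm5620, a processed pseudogene, was at 371, 167 and 79.5 CPM in PBS tumours 12, 53 and 52 and at 4.43 CPM or less in the other 7, against 1.32 to 10.4 CPM in combination tumours, so that the medians (4.00 and 4.06 CPM) were alike while the fitted log2 fold change was −3.77 ± 1.01 (adjusted p = 0.0047). Gm8797 was at 55.1 CPM in PBS tumour 15 and at 1.25 CPM or less in the other 19, and its log2 fold change was 0.14 without that tumour. Tubb4b-ps1 was at 42.9 CPM in PBS tumour 53 and at 3.09 CPM or less in the other 19, and its log2 fold change was −0.22 without tumour 53. Amd2 was high in 4 PBS tumours and in combination tumour 25, and Hspd1-ps3 in 3 PBS tumours. These 5 are pseudogenes, predicted genes or copies of another gene, so their reads are uncertain, and the fitted value of each describes those few tumours.

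Genes of osteoclast-like cells, a state that macrophages can take, were the list with called falls. Of 9 tested, 6 were called lower and none higher, with a median of −1.08. Atp6v0d2, a proton pump subunit gene of osteoclasts, fell from a median of 40.1 CPM (20.2 to 113) to 14.5 CPM (10.3 to 31.998), a log2 fold change of −1.40 ± 0.30 (adjusted p = 0.00078). The bone collagen protease gene Ctsk fell from 259 CPM (142 to 566) to 109 CPM (62.2 to 214), or −1.14 ± 0.28 (adjusted p = 0.0027), and the receptor gene Oscar by 1.61 ± 0.39. Slc9b2, a sodium-proton exchanger also found in osteoclasts, fell by 1.66 ± 0.42 (adjusted p = 0.0031). Tnfrsf11a, the gene of the receptor RANK, fell by 0.41, and Itgb3 rose by 0.40. The groups overlapped for the called genes named here, with 7 of 10 combination tumours below every PBS tumour for Atp6v0d2, Ctsk and Oscar. The count of 6 was less firm than the counts of rises, since it became 3 without tumours 22 and 42, 2 without PBS tumour 11, and 2 and 0 when combination tumours of series 2 were set against PBS series 1 and 5.

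Most cell cycle genes were lower by small amounts, while most matrix genes did not pass the test. Of 21 collagen and matrix genes none was called, 8 were lower and 1 higher by the adjusted p alone, against 24.5% and 25.7% of all genes tested, and the median was −0.20. Col3a1 fell from a median of 14437 CPM (9938 to 15890) to 9465 CPM (6930 to 14935), a log2 fold change of −0.46 ± 0.11 (adjusted p = 0.0019), and Col6a3 by 0.56. Of 25 cell cycle and DNA replication genes none was called, but 21 were lower and 1 higher by the adjusted p alone, with a median of −0.31. Tyms, which makes thymidylate for DNA, fell from 72.1 CPM (64.5 to 84.9) to 53.1 CPM (41.1 to 65.2), or −0.48 ± 0.09 (adjusted p = 0.00013), and the mitotic kinase gene Cdk1 by 0.35.

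In the vessel list 2 of 21 genes were called higher, Flt1 and Icam1, with log2 fold changes of 1.48 ± 0.20 and 1.46 ± 0.21, where 5.45% of all genes tested were. By the adjusted p alone 10 were higher and 4 lower, against 25.7% and 24.5% of all genes tested, and the median was 0.17. The adhesion genes Vcam1 and Selp rose by 0.89 and 0.82, and Apln, the gene of the peptide apelin, fell by 0.84 ± 0.13 with the groups apart. The other 3 that were lower were receptor genes, Kdr (−0.69, adjusted p = 0.0005), which encodes a VEGF receptor, the apelin receptor gene Aplnr (−0.64, adjusted p = 0.023) and the angiopoietin receptor gene Tek (−0.38, adjusted p = 0.0015). The 5 mesothelial genes tested did not move together. Wt1 rose from a median of 0.707 CPM (0.255 to 0.993) to 3.42 CPM (0.674 to 5.47), or 2.39 ± 0.37 (adjusted p = 2.7e-05), and Aldh1a2, which makes retinoic acid, by 1.78 ± 0.30, both called, and Pdpn by 0.27. Cav1 fell by 0.62 (adjusted p = 0.00015), and Vim was at −0.12 (adjusted p = 0.15). Among 13 B and plasma cell genes 1 was called higher, where 5.45% of all genes tested were.

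Transcripts of hair and skin were high in single combination tumours. Tchh, a hair follicle gene, had a fitted log2 fold change of 4.07 ± 1.36 (adjusted p = 0.019), but it was at 361 and 252 CPM in combination tumours 22 and 42 and at 31.6 CPM or less in the other 8, and without those 2 tumours the value was 0.74 (adjusted p = 0.60). The hair keratin gene Krt83 (3.81 ± 1.03, adjusted p = 0.0049) became 0.87 (adjusted p = 0.21) and the basal keratin gene Krt5 (2.68 ± 1.04, adjusted p = 0.039) became 0.90 (adjusted p = 0.48). The summed keratinocyte markers were at 6.89 to 16.4 CPM in PBS tumours and 5.40 to 65.4 CPM in combination tumours, highest in tumour 22. None of 11 skeletal muscle markers, 8 adipocyte markers and 5 erythroid markers was called, and their medians were 0.55, 0.18 and 0.21. The muscle markers summed to 475 to 2490 CPM in PBS tumours and 674 to 4680 CPM in combination tumours, highest in tumour 23.

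Among the 8 adipocyte markers 2 were higher by the adjusted p alone, where 25.7% of all genes tested were. Pnpla2, the gene of the lipase ATGL, which many cell types use, lay between 53.7 and 76.5 CPM in PBS tumours and between 80.1 and 119 CPM in combination tumours, a log2 fold change of 0.60 ± 0.07 (adjusted p = 2.3e-06) without overlap. Lpl, the lipoprotein lipase gene, also used by macrophages, rose by 0.79 ± 0.24 (adjusted p = 0.0091), and did not pass when either combination series was set against PBS series 5. Adipoq and Plin1, which define fat cells, were at −0.16 and 0.34 (adjusted p = 0.73 and 0.36). The summed level of the 8 markers was 170.01 to 374 CPM in PBS tumours (median 279) and 266 to 488 CPM in combination tumours (median 423), and the part of fat tissue in the differences between groups was not tested.

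**Figure D4:**
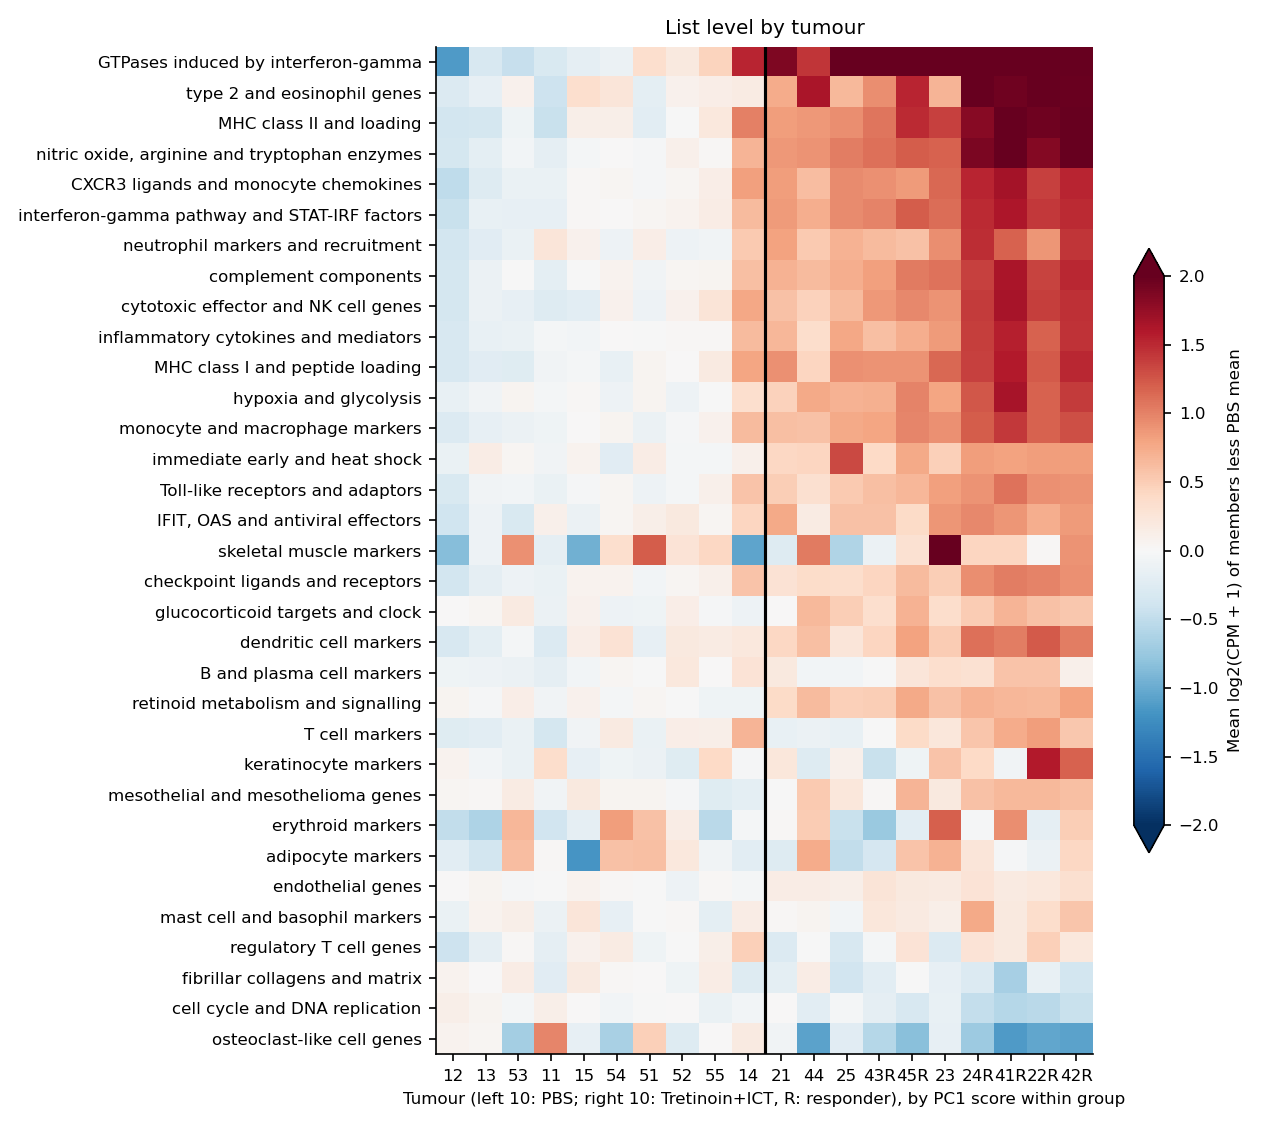
Mean log2(CPM + 1) of each list's genes in each of the 20 tumours, less the mean of the PBS tumours, with tumours ordered by the first principal component within each group and R marking responder labels. The colour scale ends at ±2. Values grow toward the right of the combination group for most immune lists, in an order that comes from these same data, so the growth is no separate result. PBS tumour 14 is the PBS tumour with the highest levels of interferon-γ lists.

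The combination tumours differed among themselves in the size of the rise of Chil3 and Pdcd1lg2. Within the group, Chil3 lay between 12.9 and 146 CPM in the 6 responder tumours and between 7.35 and 69.4 CPM in the 4 non-responder tumours, and Pdcd1lg2 between 27.5 and 140 CPM and between 18.4 and 23.6 CPM. All 4 non-responder tumours were above every PBS tumour for both genes. Response labels and name series were unevenly crossed, with 2 responders of 5 in series 2 and 4 of 5 in series 4.

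Beside the single treatments, which share the PBS tumours with the combination, most lists had their largest median in the combination. The GTPase median was 1.29 for tretinoin alone, 1.51 for ICT alone and 2.33 for the combination. For the class II list these were 0.92, 1.36 and 1.66, for the CXCR3 ligand and monocyte chemokine list 0.52, 0.88 and 1.30, and for the hypoxia list 0.30, 0.75 and 0.98. The neutrophil list stood at −0.18, 1.13 and 1.23, and the osteoclast-like list at −1.15, 0.01 and −1.08. So the neutrophil median of the combination lay near that of ICT alone, and the osteoclast-like median near that of tretinoin alone.

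**Figure D5:**
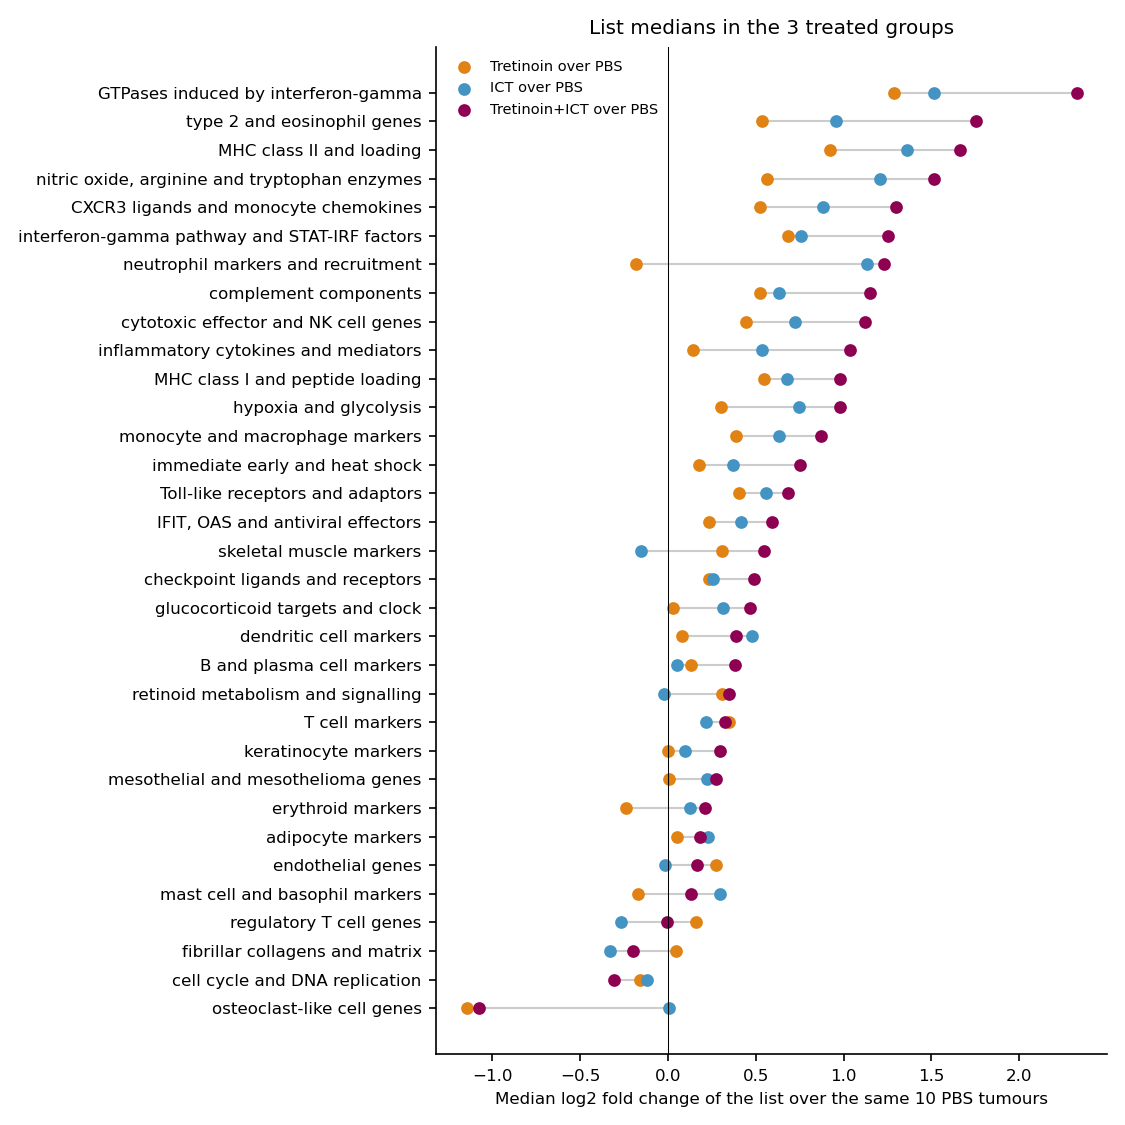
Median log2 fold change of each gene list against the same 10 PBS tumours, for tretinoin alone (9 tumours), ICT alone (10 tumours) and the combination (10 tumours). Retinoid and osteoclast-like lists lay near 0 for ICT alone, the neutrophil list lay below 0 for tretinoin alone, and the combination was largest for most immune lists.

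Direct tests called more genes between the combination and tretinoin alone than between the combination and ICT alone. Against tretinoin alone, 269 of 14393 genes (1.87%) were called higher in the combination and 31 (0.215%) lower. Of 15 neutrophil genes 10 were called higher there, among them Cxcr2 (log2 fold change 1.71, adjusted p = 3.5e-05) and Trem1 (1.36, adjusted p = 2.1e-05). Among the type 2 genes 8 were called, with Ccl17 at 1.86 and Chil3 at 2.46 (adjusted p = 0.0059 and 0.035), and among the glucocorticoid and clock genes 6, with Per1 at 1.97 (adjusted p = 8e-05). Of the 16 GTPases 3 passed. Foxp3 was lower than with tretinoin alone, by 0.73 (adjusted p = 0.016).

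Against ICT alone, 52 of 14202 genes (0.366%) were called higher in the combination and 4 (0.0282%) lower. Retinoid targets led, with Dhrs3 higher by 1.48 (adjusted p = 7.9e-08), Nrip1 by 1.30, Cyp26b1 by 2.83, Tgm2 by 1.44 and Hic1 by 1.32, and 4 of the retinoid list were called. Beyond that list, Ccl24 (2.49, adjusted p = 0.0031), Chil3 (2.27, adjusted p = 0.033) and Il1a (1.91, adjusted p = 0.014) were higher than with ICT alone. Atp6v0d2 was lower by 1.26 (adjusted p = 0.039). None of the 16 GTPases passed this test, and Igtp stood 0.82 above ICT alone on the log2 scale (adjusted p = 0.18). Cd274 and Pdcd1lg2 likewise did not pass, at 0.70 and 0.83 (adjusted p = 0.35 and 0.40).

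The interaction term over all 39 tumours asks whether the combination departs from the sum of the 2 single log2 changes. It passed for 46 of 14977 genes (0.307%), 6 above the sum and 40 below. Cyp26b1 lay furthest below it among the named genes, at −2.36 (adjusted p = 5.9e-06), with a change against PBS of 5.19 for tretinoin alone, 1.08 for ICT alone and 3.92 for the combination. Dhrs3 lay at −1.18 (adjusted p = 3.4e-07), with 2.66, 0.40 and 1.88. Both were also lower in the combination than with tretinoin alone, Cyp26b1 by 1.27 (adjusted p = 4.6e-05) and Dhrs3 by 0.78 (adjusted p = 2.3e-05). Adm lay at −1.04 (adjusted p = 0.0035), the heat shock gene Hspa1a at −1.31 (adjusted p = 0.039) and RP23-421N20.4, an antisense transcript whose reads cannot be told from its partner's without strand, at −1.25 (adjusted p = 0.049). The endothelial selectin gene Sele, named after its value was seen, lay above the sum, at 0.86 (adjusted p = 0.038). For the GTPases, the chemokines and the other immune genes named in the comparison with PBS the term did not pass, with Igtp at −0.50 (adjusted p = 0.80) and Chil3 at −0.17 (adjusted p = 0.97).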

How the data were processed

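RNA from whole tumours was sequenced as single-end reads on a NovaSeq. The submitters' processing notes name bcl2fastq 2.20.0.422 and HISAT2 2.0.4. According to the methods the genome was mm11 and SummariseOverlaps did the counting, and the raw counts of 39676 genes were deposited. Strand mode and multi-mapping are not given in the sources used here. Coordinates come from GENCODE M21 (GRCm38), whose versioned identifiers matched 36719 genes.

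Counts were tested in R 4.3.3 with edgeR 4.0.16 (filterByExpr, TMM, robust quasi-likelihood F-test, Benjamini-Hochberg over all genes tested), on the groups compared or on all 39 tumours for the interaction. DESeq2 1.42.0, limma 3.58.1, other filters and left-out tumours were alternatives. The scripts were tested on simulated data. Levels are TMM-scaled CPM. Named genes were the 10 largest rises and falls among called genes with mean log2 CPM of at least 1, the 10 smallest adjusted p-values, up to 6 genes of each of 34 lists (612 symbols, 545 in the table, the rest not analysed here) and 5 for the interaction. Those 5 were the called genes with the smallest p of the interaction term. Lists share some genes, Ido1, Nos2, Cd86 and Tnfrsf9 among them, so the counts of different lists are not separate results. Members and lists were chosen with earlier results of these data known. The labels name separate tumours and not whether mice shared a cage, so p-values measure the spread between tumours. Values of some genes are not reported here.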

Additional observations from a re-analysis of the deposited data

Results flagged for a closer look

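Among 64 groups of 10 values checked, 8 held a tumour whose gap to its neighbour exceeded 0.466 of the group's range (Dixon's limit). The rate of about 1 group in 20 that this limit is set for does not apply here. The genes were named from these same values, and the groups share tumours. PBS tumour 14 was such a tumour for Pdcd1lg2 (3.63 on the log2(CPM + 1) scale, against a PBS median of 2.23), Ido1 (2.25 against 0.72) and Tagap (5.36 against 4.995). The same tumour had the highest PBS value on the first principal component. Single PBS tumours were far above their group for Gm8797 (tumour 15, at 5.81 against a median of 0.82) and Tubb4b-ps1 (tumour 53, at 5.46 against 1.63). In the combination, tumour 21 was the lowest for Cyp26b1 (5.76 against a median of 6.91), tumour 25 the highest for Amd2 (4.76 against 1.09), and tumour 45 had the deepest library, with 37951183 counts.

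The interaction of tretinoin and ICT passed the test for Sele, named after its value was seen, which lay above the sum of the single treatments (0.86), and for 5 genes named by rule, Dhrs3 (−1.18), Cyp26b1 (−2.36), Adm (−1.04), Hspa1a (−1.31) and RP23-421N20.4 (−1.25), each of these 5 below that sum, on the log2 scale. The rule took the called genes with the smallest p of this same term, so their passing is no separate result.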

How the results depend on the processing

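Called rises and falls in the combination against PBS (778 and 67) ranged from 700 to 876 and from 47 to 80 when 1 tumour was left out, the highest count of rises being that without PBS tumour 14. DESeq2 called 1198 and 189, no filter on low counts 1335 and 251, and no fold minimum 3673 and 3501. Only falls moved by over 1.5 times with at least 10 counts in every tumour (37), in series 2 against 1 (39) and in series 4 against 5 (115). Against tretinoin alone the falls (31) became 95 with DESeq2 and 97 without the filter. Against ICT alone the counts (52 and 4) became 124 and 13 with DESeq2. For tretinoin alone the falls (19) became 53 with DESeq2 and 44 without the filter, and for ICT alone (9) 36 and 38. The interaction count (46) became 85 with DESeq2 and 29 without the filter. The cause of these moves was not tested. Of the 191 named genes past the threshold, 143 kept their direction and side in every alternative run. Of 6086 gene values, 226 lost the threshold and 3 reversed. Those 3 were the log2 fold change of Gm8797, which was 0.13 with DESeq2, 0.34 in series 2 against 5 and 0.14 without PBS tumour 15 (−3.07 to 0.14 with 1 tumour left out). Leaving out tumours 22 and 42 was chosen after seeing the data. No paired analysis was possible because the labels give no shared replicate number. Genes near 0 CPM, such as Ly6g, could not be tested at this depth.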

Other observations

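Called rises lay near one another in 26 stretches of the genome, with 140 genes in all. Each held at least 4 called genes whose starts were within 200000 bases of the next. By this rule a stretch begins and ends on a called gene, and uncalled neighbours outside it are not counted. In 8 stretches every tested gene was called, a share that the rule itself favours. The number of stretches to be expected without any grouping was not tested. The guanylate-binding protein genes formed a stretch on chromosome 3 (chr3:142493978-142638008), with 5 of 5 tested genes called. Another lay on chromosome 5 (chr5:105014150-105346472), with 7 of 7, the predicted gene Gm43302 among them. A chemokine stretch on chromosome 11 (chr11:83525778-83664683) held Ccl5, Ccl9, Ccl6, Ccl3 and Ccl4 and was called in 6 of 6 genes, and a second (chr11:82035571-82305690) in 5 of 6, with Ccl12 the exception. A stretch on chromosome 6 (chr6:124493113-124581171) was called in 5 of 5, the complement protease genes C1rl, C1ra, C1s1 and C1rb and the predicted gene Gm18840. Another on chromosome 17 (chr17:34187553-34216321) was called in 4 of 4, the peptide transporter genes Tap1 and Tap2 and the predicted genes Gm20496 and Gm15821. A stretch of Ly6 genes (chr15:74979534-75111970) was called in 5 of 5, the pseudogene Gm5960 among them. That of the Klra family of NK receptor genes (chr6:130218605-130337574) was called in 4 of 4, the pseudogene Klra13-ps among them. Several of these families are of near-identical copies, among which reads cannot be shared out with certainty.

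In a stretch on chromosome 1 (chr1:193175453-193343878), bounded by the same rule, all 5 tested genes, Traf3ip3, Lamb3, Hsd11b1, G0s2 and Gm37691, were called higher. G0s2, an inhibitor of the lipase ATGL and a known target of retinoic acid, went from a median of 2.01 CPM (1.09 to 3.48) in PBS tumours to 11.98 CPM (8.03 to 23.01) in combination tumours, or 2.71 ± 0.22 on the log2 scale (adjusted p = 3e-08, edgeR), and was higher than with ICT alone by 2.17 and than with tretinoin alone by 1.46.

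A few genes outside the lists, named after their values were seen, differed between the arms. Inmt, a methyltransferase gene, was at 7.44 to 24.9 CPM with tretinoin alone, at 1.04 to 6.35 CPM in the combination and at 0.924 CPM or less with ICT alone, so that the combination stood 1.93 below tretinoin alone and 2.90 above ICT alone on the log2 scale (edgeR, adjusted p = 0.00043 and 4.8e-05). The retinoid uptake receptor gene Stra6 was at 12.2 to 30.7 CPM in PBS tumours and 14.7 to 31.4 CPM in combination tumours, with a log2 fold change of −0.00 ± 0.16 (adjusted p = 0.99), while tretinoin alone was above it, the combination differing from tretinoin alone by −1.196 on that scale. Cd207, which encodes langerin, was lower in the combination than with ICT alone by 1.69 (adjusted p = 0.0066) and than in PBS tumours by 1.70, at 1.51 CPM or less in every combination tumour.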
